A study of Homo sapiens with 12 samples.

Results

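The genes described here are the 7 secreted matrix metalloproteinases (MMPs) of the collagenase, stromelysin and matrilysin kinds that lie in one cluster on the long arm of chromosome 11: MMP1, MMP3, MMP7, MMP8, MMP10, MMP12 and MMP13. They were taken by name, and all 7 were among the 15459 genes listed in both tables of the series, which together list 16633 genes. Polyadenylated RNA had been sequenced from HT1080 cells, a human fibrosarcoma line with wild-type genotype, in 12 libraries of 4 groups with 3 libraries each. In the first experiment cells were kept for 24 h with PMA (phorbol 12-myristate 13-acetate, an activator of protein kinase C) at 40 nM, beside 3 untreated controls. In the second they received 40 µg/mL concanavalin A (ConA), a mannose-binding plant lectin, for 24 h, beside 3 untreated controls of its own, numbered 4 to 6. All groups were plated in biotin-depleted medium and moved 3 days later to 1% serum, with the agents added at that change. Nothing in the sample records says that the 3 libraries of a group came from separate cultures, so the p-values measure the spread between these libraries, which may be technical.

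MMPs are zinc endopeptidases that cut the proteins of the extracellular matrix. The secreted ones leave the cell as inactive proenzymes, in which a cysteine of the propeptide occupies the catalytic zinc, and they become active once the propeptide is cut away. MMP1 (interstitial collagenase), MMP8 (neutrophil collagenase) and MMP13 (collagenase-3) open the triple helix of fibrillar collagens. MMP3 (stromelysin-1) and MMP10 (stromelysin-2) cut proteoglycans, laminin and fibronectin and process other proenzymes. MMP7 (matrilysin) is the small member with no hemopexin domain, and MMP12 is the metalloelastase best known from macrophages. HT1080 cells are a common laboratory source of MMPs, and phorbol esters have long been used to raise MMP transcripts in fibroblasts.

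The relatedness of the 7 genes can be read in the codons of the catalytic site, shown because the reads that tell these genes apart come from stretches that differ. Each line below gives the 33 bases that encode the zinc-binding site in the coding strand, 5′ to 3′, with the codons of the 3 zinc-binding histidines and of the catalytic glutamate in capitals. The site lies in exon 5 of every transcript, all 7 genes are on the minus strand of chromosome 11, and sequences and coordinates are from the GENCODE release 29 annotation on GRCh38, not from the build of the read counts.
MMP7 (chr11:102523343-102523375): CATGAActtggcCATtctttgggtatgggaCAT
MMP8 (chr11:102718517-102718549): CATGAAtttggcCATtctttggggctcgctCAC
MMP10 (chr11:102776718-102776750): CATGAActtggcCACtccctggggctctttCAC
MMP1 (chr11:102795549-102795581): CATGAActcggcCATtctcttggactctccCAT
MMP3 (chr11:102840535-102840567): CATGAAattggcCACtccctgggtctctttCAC
MMP12 (chr11:102868011-102868043): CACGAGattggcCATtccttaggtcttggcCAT
MMP13 (chr11:102952115-102952147): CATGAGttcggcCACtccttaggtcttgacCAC

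The MMP3 and MMP10 sites were identical at 31 of 33 bases, and over all pairs of genes the count ran from 21 to 31. Over whole transcripts, 3.45% of the 50-base windows of MMP10 were also found in MMP3 and 3.00% of those of MMP3 in MMP10, so a small part of the reads of either stromelysin could have been shared. Of MMP1, 2.92% of the windows lay in WTAPP1, a pseudogene transcribed from the opposite strand, and the values cannot be assigned to a strand. No such window was shared by MMP7, MMP8, MMP12 or MMP13.

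Promoter sequence was at hand for 3 of the 7 genes and is shown because AP-1, the Fos and Jun dimer, is a textbook regulator of MMP promoters. The lines give the 250 bases before the annotated start, 5′ to 3′ on the minus strand of chromosome 11, from RefSeq on GRCh38.p14, with matches to the AP-1 motif TGANTCA and to TATAAA in capitals.
MMP7 (chr11:102530748-102530997): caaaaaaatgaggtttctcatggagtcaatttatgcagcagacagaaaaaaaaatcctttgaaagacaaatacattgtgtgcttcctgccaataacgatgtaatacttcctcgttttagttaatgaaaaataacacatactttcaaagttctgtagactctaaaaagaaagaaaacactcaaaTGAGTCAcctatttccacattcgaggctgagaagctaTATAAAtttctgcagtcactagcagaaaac
MMP8 (chr11:102724955-102725204): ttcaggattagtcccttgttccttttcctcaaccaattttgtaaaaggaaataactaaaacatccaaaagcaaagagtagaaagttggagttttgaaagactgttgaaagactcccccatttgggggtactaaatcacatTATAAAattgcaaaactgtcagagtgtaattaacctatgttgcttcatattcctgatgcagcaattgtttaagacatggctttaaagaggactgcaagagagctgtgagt
MMP10 (chr11:102780629-102780878): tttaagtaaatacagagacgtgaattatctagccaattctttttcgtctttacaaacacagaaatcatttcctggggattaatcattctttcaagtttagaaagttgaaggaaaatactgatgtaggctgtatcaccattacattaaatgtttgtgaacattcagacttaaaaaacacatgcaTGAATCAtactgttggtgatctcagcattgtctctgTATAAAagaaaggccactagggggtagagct

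The AP-1 letters stood at -67 to -61 from the start in both MMP7 and MMP10 and were not found in this window of MMP8. They occur in 6.57% of the 35116 promoters of the same table, with both strands searched for every motif. TATAAA, held by 10.7% of promoters, lay at -30 to -25 in MMP7, at -31 to -26 in MMP10 and at -110 to -105 in MMP8. The ETS motif AGGAAG, held by 28.7%, matched at 2 places of the MMP7 window on the opposite strand and did not overlap the other motifs. Neither the GAS motif TTCNNNGAA (6.57% of promoters) nor the NF-kappaB motif (5.21%) matched in any of the 3 windows. These matches describe letters only.

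Reads assigned to the genes listed in its table were estimated at 33649420 to 45588055 per library, which is not the full sequencing depth. Of the 8 mesenchymal markers checked, 8 were listed in the PMA table and 7 in the ConA table, with a summed level of 398792 to 597789 normalized counts (reads divided by a size factor per library), and epithelial markers summed to 170 to 340. Neutrophils and macrophages are known sources of MMP8 and MMP12. Of 10 neutrophil markers, 8 were listed in neither table, MPO, ELANE and CSF3R among them, and the other 2 summed to 22.1 to 38.5 normalized counts in PMA controls, 55.1 to 72.2 with PMA, 21.01 to 40.6 in ConA controls and 19.8 to 26.1 with ConA. Of 10 macrophage markers, 6 were listed in the PMA table (5481 to 5947 in controls and 7730 to 8099 with PMA) and 4 in the ConA table (6175 to 6604 and 17578 to 20786). CD68, a lysosomal protein that many cells make, was most of this sum and was called higher with ConA (log2 change 1.67). CD163 was called higher with PMA, from 3.63 to 28.2 normalized counts on average, and ITGAM went from 3.69 to 29.4 with ConA without passing the threshold (adjusted p = 1.34e-04, limma). In these comparisons both genes reached the minimum level for testing only through their treated libraries. In the PMA experiment ITGAM averaged 35.1 in controls and 37.2 with PMA. LYZ averaged 10.8 in PMA controls and 2.77 with PMA, with no test, and 93.3 in ConA controls and 111 with ConA, not called. PTPRC, not listed in the ConA table, averaged 180 in PMA controls and 243 with PMA and was not called. CSF1R stood at 303 and 330.4 in PMA controls and with PMA and at 357 and 259.6 in ConA controls and with ConA, while CD14, MARCO, FCGR1A and TYROBP were listed in neither table. Of 11 lymphocyte markers, 8 were listed in the PMA table, at a sum of 914 to 1070 in controls and 1377 to 1813 with PMA, and 2 in the ConA table, at 46.9 to 51.1 and 47.0 to 59.1. Of these GNLY was called higher with PMA (83.8 to 233 on average). What part such cells had in the MMP values was not tested, and in bulk RNA more transcript per cell cannot be told apart from more cells with the transcript.

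Without treatment MMP1 was by far the most abundant of the 7, and the others were at low levels. Levels of different genes were compared per kilobase of transcript. In PMA controls MMP1 stood at 420 ± 31.8 normalized counts per kb (SD, n = 3). MMP7 (26.6 ± 28.6) and MMP3 (25.3 ± 5.55) followed and did not differ beyond their spread, and then came MMP13 (4.67 ± 0.0732), MMP8 (0.887 ± 0.284) and MMP10 (0.856 ± 0.287), of which the last pair did not differ beyond their spread either. MMP12 was at 0 in all 3 PMA controls, which allows up to 3 estimated reads in a library. In ConA controls the order was MMP1 (186 ± 10.4), MMP7 (22.4 ± 7.44), MMP13 (17.0 ± 2.11) and MMP3 (7.58 ± 2.01), with MMP7 and MMP13 overlapping. MMP8, MMP12 and MMP10 were at or below 1 normalized count per kb on average in these controls. The tables were normalized separately, so levels in one set of controls are not to be read against those in the other.

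**Figure D1:**
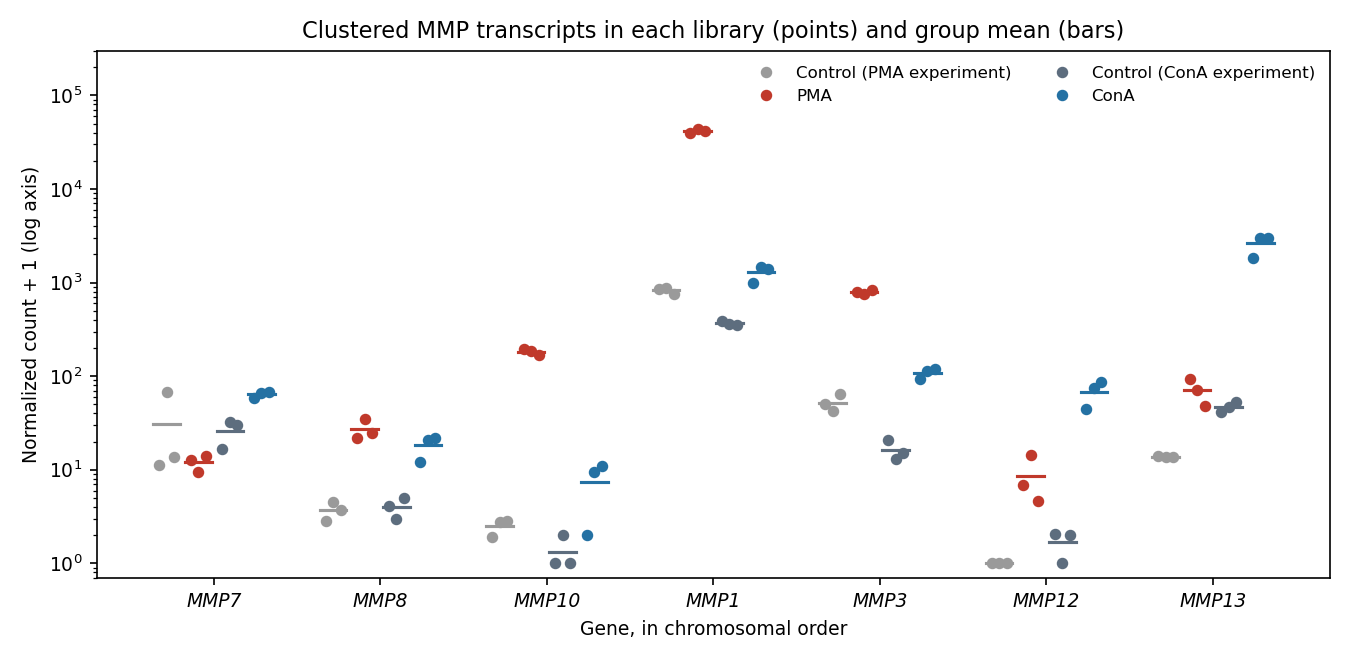
Normalized counts plus 1 (logarithmic axis) of the 7 MMP genes in each of the 12 libraries, by group, with points for single libraries and bars for group means. MMP1 had 40071 normalized counts or more in every PMA library, and MMP13 at 1846 or more in every ConA library, while MMP7 overlapped between PMA and its controls.

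Treatment with PMA raised 5 of the 7 genes, both stromelysins and all 3 collagenases, with MMP1 and MMP10 changed the most. A gene was called when its log2 fold change reached 1 in size and its adjusted p from limma did not exceed 0.0001. By this rule 4.03% of the 15153 genes tested were higher with PMA, 4.61% were lower, and 8.65% changed in either direction. Without the variance trend in the fit, 3 of the 5 were called, and MMP8 (adjusted p = 2.62e-04) and MMP13 (5.90e-04) were not. MMP8 and MMP10 passed the minimum of 10 normalized counts only through the treated libraries, and MMP12 did not pass it and was not tested. No member was lower by this rule. Values of 6 of the 7 genes lay higher in all PMA libraries than in all controls and those of none lay lower, against 34.8% and 33.1% of all genes tested. The 6 include MMP12, which was not tested, so the member count and these shares rest on unlike sets.

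MMP1, the interstitial collagenase, was at 845, 880.0 and 758 normalized counts in PMA controls 1, 2 and 3 and at 40071, 43452 and 41216 in PMA libraries 1, 2 and 3. The groups were far apart and each was narrow. The ratio of means was 50.2, and the log2 fold change was 5.65 ± 0.06 (SE; adjusted p = 3.41e-14, limma).

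MMP13, collagenase-3, was at 12.9, 12.5 and 12.6 in PMA controls and at 92.9, 70.3 and 46.7 with PMA. The controls were nearly equal, the treated libraries spread almost 2-fold, and the groups did not overlap. The change was 2.32 ± 0.27 on the log2 scale (adjusted p = 1.60e-05, limma), and it no longer passed the threshold when PMA control 1, PMA library 1 or PMA library 2 was left out (adjusted p up to 2.41e-04). MMP8, the collagenase named for neutrophils, was at 1.84, 3.58 and 2.71 in controls and at 20.9, 34.2 and 23.9 with PMA. These are 9 estimated reads in all controls against 74 in all PMA libraries, a ratio of 9.90 after allowance for depth with a 95% counting interval of 4.94 to 22.5. The fitted change was 2.88 ± 0.40 (adjusted p = 7.48e-05, limma), close to the threshold, and the call was lost in 5 of the 6 fits that left out 1 library, all but that without PMA control 3 (adjusted p from 8.18e-05 to 0.00120 over the 6).

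MMP3, stromelysin-1, was at 48.9, 41.1 and 63.2 normalized counts in PMA controls and at 798, 755 and 824 with PMA. The lowest treated library stood more than 10 times above the highest control. The ratio of means was 15.5 and the log2 change 3.95 ± 0.14 (adjusted p = 6.65e-10, limma). MMP10, stromelysin-2, was close to absent in PMA controls, at 0.922, 1.79 and 1.81, which are 1, 2 and 2 estimated reads. It stood at 195, 183 and 169 with PMA, 501 estimated reads in all. The ratio of pooled reads was 120.7, with a 95% counting interval of 51.4 to 373, and the fitted change was 6.21 ± 0.27 (adjusted p = 4.18e-09, limma). The fitted value depends on the count of 1 added before taking logarithms. Within a library, the per-kb level of MMP10 was 0.0216 to 0.0499 of that of MMP3 in controls and 0.235 to 0.280 with PMA, so the stromelysins moved closer together without overlap of these ratios.

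MMP7, matrilysin, did not change by the rule with PMA. It was at 10.1, 67.1 and 12.6 in controls 1, 2 and 3 and at 11.6, 8.56 and 13.2 with PMA. A single control, number 2, was far above all other libraries of the experiment, and the remaining values overlapped. The fitted log2 change was -0.87 (95% CI -2.15 to 0.41; adjusted p = 0.214, limma), and without control 2 it was -0.04 (adjusted p = 0.932). Other genes were high in PMA control 2 as well, and such genes were found in each library of the experiment. At a level of at least 20 normalized counts, 24 genes including MMP7 were there at least 3-fold above both other controls, among them the copper carrier ceruloplasmin (CP, 304 against 5.57 and 10.1, chosen after its values were seen), against 23 genes in control 3 and 3 in control 1. By the same measure within the treated group, PMA library 3 had 40 genes, library 1 had 8 and library 2 had 2. The part of these differences in the MMP7 value was not tested.

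MMP12, the metalloelastase, was at 0 in all PMA controls and at 5.80, 13.3 and 3.59 with PMA, which are 22 estimated reads. All treated libraries were above all controls. Set against 3 estimated reads in each control, this is at least 2.78-fold higher with PMA, with no test.

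**Figure D2:**
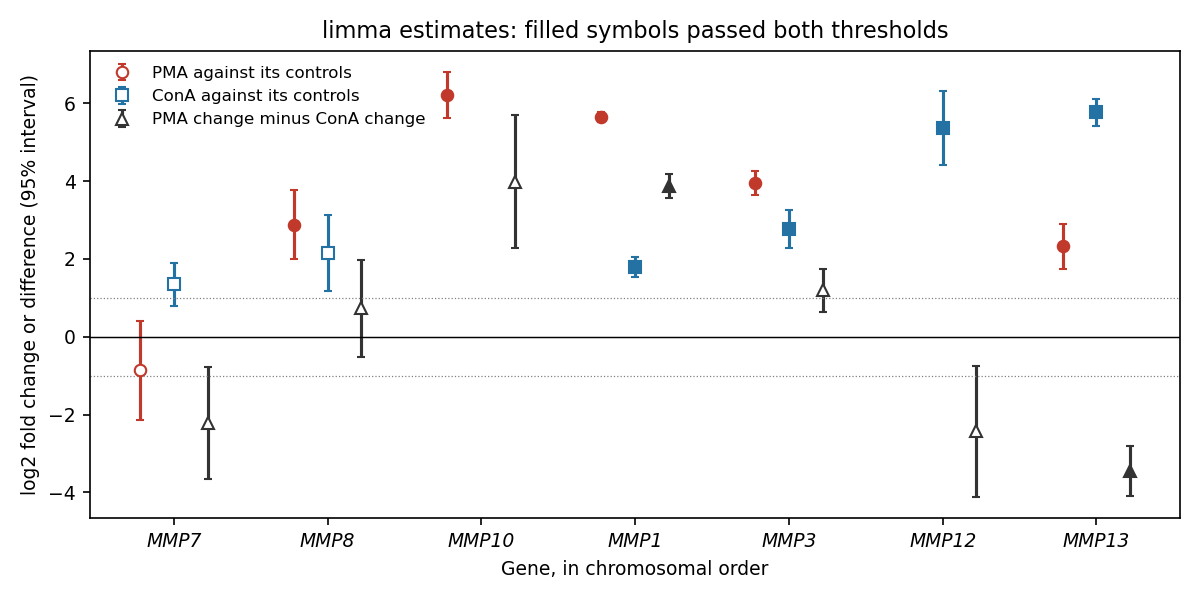
Log2 fold change with 95% confidence interval (limma, n = 3 libraries a group) of each MMP gene with PMA and with ConA against the controls of the same table, and the difference between them. MMP1 lay at 5.65 with PMA and 1.78 with ConA, MMP13 at 2.32 and 5.77, and genes that did not pass the filter have no mark.

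ConA raised 4 of the 7 genes by the same rule, where 5.83% of the 15139 genes tested were higher, 2.88% were lower and 8.71% changed in either direction. These were the collagenases MMP13 and MMP1, the stromelysin MMP3 and the metalloelastase MMP12. In a fit without the variance trend MMP13 was the 1 gene still called, with adjusted p-values of 2.60e-04 for MMP1 and 1.13e-04 for both MMP3 and MMP12. MMP7 and MMP8 had adjusted p-values above the threshold, and MMP10 did not pass the filter. MMP8 and MMP12 passed the filter only through the treated libraries. In 7 of 7 genes every ConA library lay above every control, against 34.9% of all genes tested that did so and 34.4% that lay below. For MMP10, which is outside the genes tested, this rests on library 1 and control 5 with 1 estimated read each, so it is no separation.

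MMP13 and MMP12 had the largest changes of the members tested with ConA, and their order depends on the value added before taking logarithms. For MMP13 the values were 1846, 3029 and 3005 in ConA libraries 1, 2 and 3 and 40.6, 46.0 and 52.1 in ConA controls 4, 5 and 6. The groups were widely apart, with library 1 the lowest of the treated ones. The ratio of means was 56.8 and the log2 change 5.77 ± 0.16 (adjusted p = 7.27e-13, limma). MMP1 was at 987, 1456 and 1403 with ConA and at 389, 362 and 349 in its controls, again without overlap and with library 1 lowest. The ratio was 3.50 and the log2 change 1.78 ± 0.12 (adjusted p = 1.35e-08, limma). The neutrophil collagenase MMP8 was at 11.01, 19.9 and 20.7 against 3.13, 2.00 and 4.01, or 53 against 9 estimated reads, with a pooled ratio of 5.68 (95% counting interval 2.78 to 13.1). Its fitted log2 change of 2.15 ± 0.45 had an adjusted p of 8.19e-04 (limma) and missed the threshold.

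MMP3 was at 92.1, 114 and 117 with ConA and at 19.8, 12.0 and 14.0 in controls. All treated libraries were several-fold above all controls. The ratio was 7.04 and the log2 change 2.76 ± 0.23 (adjusted p = 1.16e-07, limma). MMP10 hardly registered, at 1.00, 8.36 and 9.88 with ConA and at 0, 1.00 and 0 in controls, so that library 1 and control 5 each held 1 estimated read. In all, 20 reads stood against 1, a pooled ratio of 19.3 with a 95% counting interval of 3.08 to 799, with no test.

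MMP7 was at 57.1, 64.8 and 67.4 with ConA and at 15.6, 31.0 and 29.1 in controls, higher in 3 of 3 treated libraries without overlap. Its log2 change of 1.34 ± 0.26 had an adjusted p of 3.51e-04 (limma), which missed the threshold of 0.0001. MMP12 was at 43.1, 73.2 and 86.3 with ConA and at 1.04, 0 and 1.00 in controls. The controls held 2 estimated reads in all and the treated libraries 209, a pooled ratio of 100.7 with a 95% counting interval of 27.5 to 837. The fitted change was 5.36 ± 0.44 (adjusted p = 1.28e-07, limma), below that of MMP13, and with 0.1 in place of 1 added before logarithms it was 7.02, above the 5.80 of MMP13.

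ConA library 1 had the lowest value of its group in 7 of 7 members. Its log2 level lay below the mean of libraries 2 and 3 by 0.21 for MMP7, 0.53 for MMP1, 0.71 for MMP13 and, at the far end, 2.33 for MMP10. Among the 882 genes that rose with ConA this library was lowest in 71.1%, with a median log2 difference of -0.15, and among all genes tested in 38.4%. The 4 called members were also called without it, MMP13 then at 6.00, MMP12 at 5.65, MMP3 at 2.87 and MMP1 at 1.96.

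**Figure D3:**
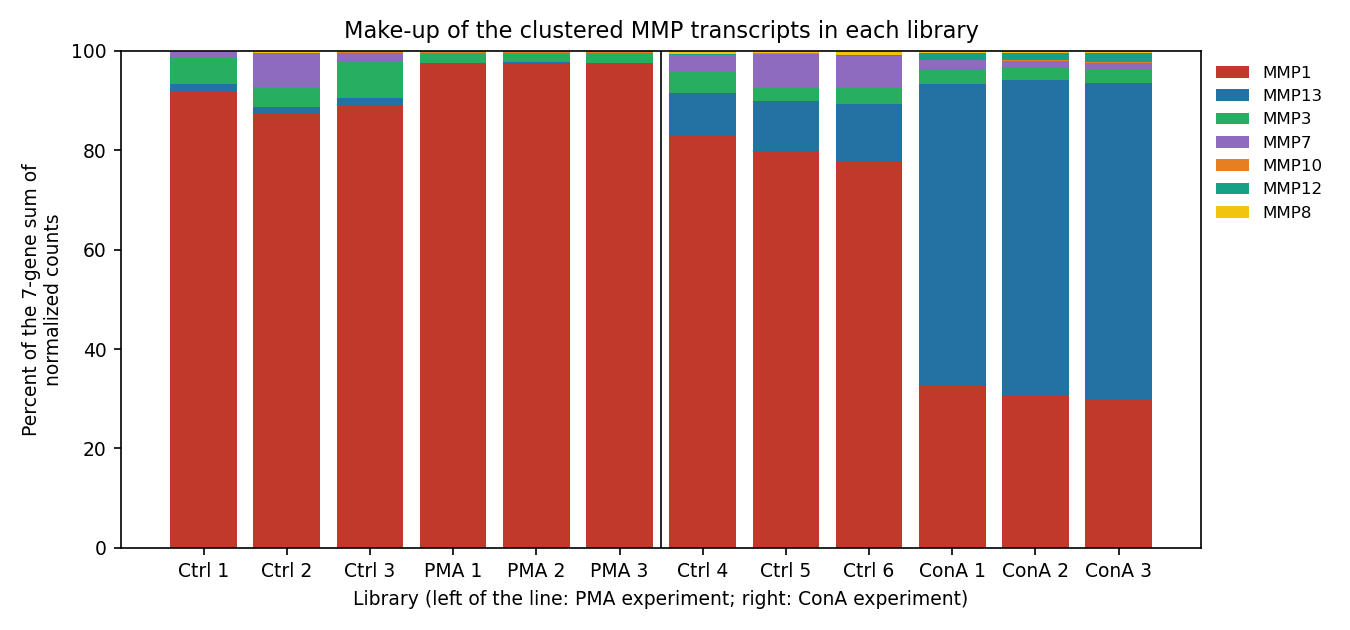
Share of each MMP gene in the summed normalized counts of the 7 genes (percent), 1 bar for each library. MMP1 took 97.4% on average with PMA and 30.9% with ConA, where MMP13 took 62.7%.

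The cluster's transcript pool was mostly MMP1 with PMA and mostly MMP13 with ConA. Summed over the 7 genes, the level went from 25.1 ± 2.14 to 1063 ± 42.5 RPM (estimated reads scaled to library depth) with PMA (SD, n = 3) and from 10.7 ± 0.330 to 102 ± 24.6 with ConA. MMP1 held 89.5 ± 2.24% of the sum in PMA controls and 97.4 ± 0.169% with PMA, and went from 80.1 ± 2.62% in ConA controls to 30.9 ± 1.40% with ConA. MMP13 went from 1.38 ± 0.122% to 0.165 ± 0.0578% with PMA, a smaller share although its own level rose, and from 10.1 ± 1.47% to 62.7 ± 1.69% with ConA. These shares are of normalized counts without division by length and were not tested. On the per-kb scale, MMP13 stood at 0.000822 to 0.00168 of MMP1 within PMA libraries and at 1.36 to 1.55 of it within ConA libraries. The change of order held within each ConA library, although the ranges over libraries of the per-kb levels overlapped, 680 to 1115 for MMP13 and 501 to 739 for MMP1.

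With PMA the per-kb order was MMP1 (21106 ± 873), MMP3 (393 ± 17.3), MMP10 (104 ± 7.46), MMP13 (25.8 ± 8.50), MMP7 (9.88 ± 2.09), MMP8 (8.62 ± 2.28) and MMP12 (4.04 ± 2.72). MMP7 and MMP8 did not differ beyond their spread, nor did MMP8 and MMP12. With ConA MMP13 (967 ± 249) and MMP1 (651 ± 130) led, and MMP7 (56.1 ± 4.77), MMP3 (53.4 ± 6.70) and MMP12 (36.02 ± 11.8) followed, of which neighbours overlapped. MMP8 (5.62 ± 1.75) and MMP10 (3.65 ± 2.70) came last and overlapped as well. MMP10 was thus the member with the third level of 7 with PMA. With ConA it was among the lowest, in an order with MMP8 that was not resolved.

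The ConA change was subtracted from the PMA change in a fit of all 12 libraries, and 10.6% of the 15030 genes tested passed the same thresholds, 3.67% with a difference toward PMA and 6.89% toward ConA. Of the members 2 of 7 passed. MMP1 rose more with PMA, by 3.87 on the log2 scale (SE 0.15; adjusted p = 3.89e-13, limma), and MMP13 rose more with ConA, with a difference of -3.45 (SE 0.30; adjusted p = 3.41e-08). Each agent was given in its own experiment, so the agent and the experiment cannot be told apart in this contrast.

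The other 5 did not pass. MMP10 differed by 3.99 (95% CI 2.28 to 5.69; adjusted p = 3.88e-04) and MMP3 by 1.19 (95% CI 0.65 to 1.73; adjusted p = 6.81e-04), both toward PMA. MMP7 differed by -2.21 (95% CI -3.65 to -0.77; adjusted p = 0.00986) and MMP12 by -2.43 (95% CI -4.11 to -0.75; adjusted p = 0.0140), both toward ConA. In this fit MMP10 passed the filter only through its PMA libraries and MMP12 only through its ConA libraries. The change of MMP10 with ConA and that of MMP12 with PMA rested on few reads and had not been tested. For MMP10 and MMP12 the intervals and adjusted p-values are thus descriptive. MMP8 passed the filter only through the treated libraries of both agents. For MMP8 the difference of 0.73 had an interval from -0.51 to 1.97 (adjusted p = 0.295), which does not show equal changes, and under quantile normalization it was 1.98 (adjusted p = 0.0103). Without PMA control 2 the MMP7 difference was -1.39 (adjusted p = 0.0123), more than 1.5 times smaller as a log2 value.

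**Figure D4:**
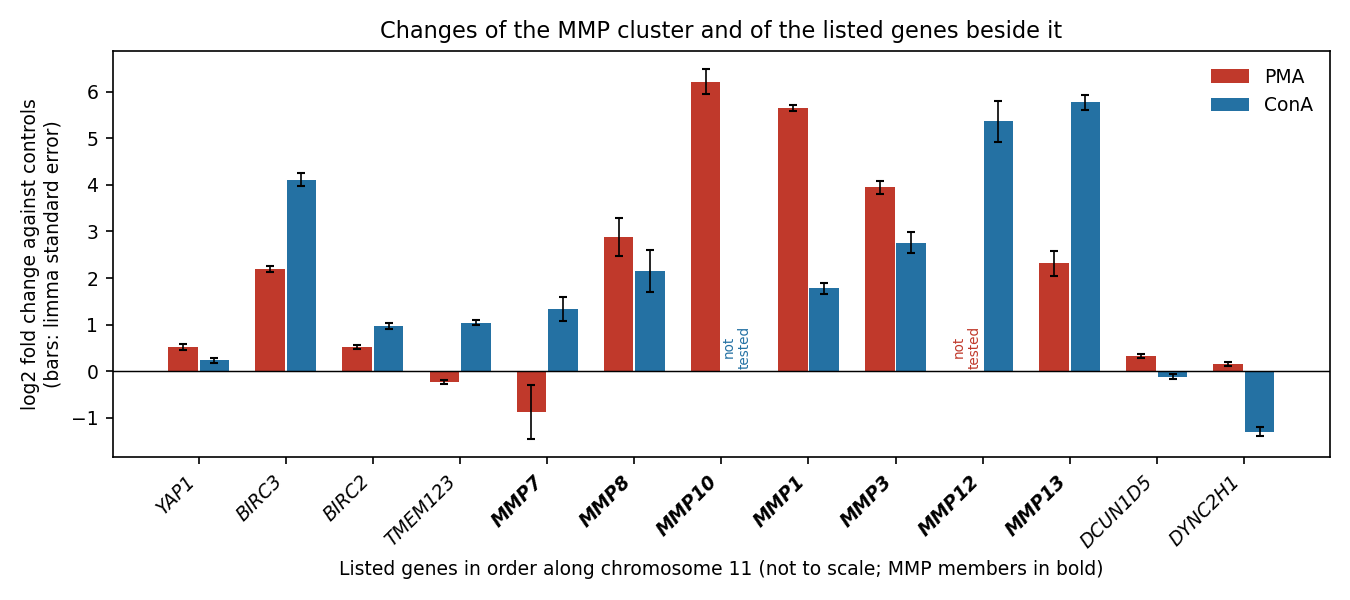
Log2 fold change (limma, with SE) with PMA and with ConA of the genes of the MMP cluster and its listed neighbours, drawn in their order along chromosome 11 with even spacing. Flanking genes other than BIRC3 lay between -1.29 and 1.04, and MMP20 and MMP27 inside the cluster were listed in neither table.

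The genes beside the cluster were compared next, in their order along the chromosome. BIRC3, BIRC2, TMEM123 and YAP1 lie on the MMP7 side, and DCUN1D5 and DYNC2H1 on the MMP13 side. BIRC3, an inhibitor of apoptosis and a known NF-kappaB target, rose with both agents, by 2.19 ± 0.07 with PMA and 4.11 ± 0.14 with ConA (log2, SE; adjusted p = 2.80e-10 and 5.13e-12, limma). TMEM123, a cell surface glycoprotein, rose by 1.04 with ConA and had -0.23 with PMA, and DYNC2H1, a dynein of cilia, fell by 1.29 with ConA and had 0.15 with PMA. In all, 1 of 6 neighbours tested was higher with PMA, and with ConA 2 were higher and 1 was lower. Of all genes tested, 4.03% were higher and 4.61% lower with PMA, and 5.83% and 2.88% with ConA. BIRC2, YAP1 and DCUN1D5 did not pass with either agent (-0.11 to 0.98). MMP20 (enamelysin), MMP27 and WTAPP1, which lie between members, were listed in neither table, in which every gene had at least 10 estimated reads in some library. Listed genes that lie next to each other had changes of different size, such as MMP8 and MMP10 (2.88 and 6.21 with PMA) or MMP12 and MMP3 (5.36 and 2.76 with ConA), and these differences between genes were not tested.

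Proteins that work with these enzymes were described from lists drawn up for this report with earlier results of these data known, so their counts are no independent evidence. The median log2 change of all genes tested was 0.00 in both tables. The shares of all genes called were 4.03% higher and 4.61% lower with PMA, and 5.83% and 2.88% with ConA. Of the MMPs outside the cluster, 9 were tested with each agent, and 1 rose and 2 fell with PMA (median -0.59) and with ConA (median -0.16). The gelatinase MMP9 rose with both (4.77 with PMA, 2.25 with ConA) and the membrane-bound MMP24 fell with both (-1.66 and -1.86). MMP2, the other gelatinase, fell by 1.28 with PMA, and MMP16, another membrane type, fell by 1.28 with ConA.

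Activators of proMMPs, mainly plasminogen system genes and other proteases, gave 2 higher and 1 lower of 6 tested with PMA (median 0.38) and none called of 7 with ConA (median 0.08). The urokinase receptor PLAUR rose by 1.40 and the plasminogen receptor PLGRKT by 1.22 with PMA, and tissue plasminogen activator, PLAT, fell by 1.62. Of the inhibitors, 3 rose and 1 fell of 7 with PMA (median -0.27), and 1 rose and 1 fell of 6 with ConA (median 0.15). TFPI2, a Kunitz-type inhibitor, rose with both (3.79 and 3.13), and TIMP3, the matrix-bound tissue inhibitor, fell with both (-3.51 and -1.58). TIMP1 rose by 2.95 with PMA and so did alpha-2-macroglobulin, A2M, by 2.57 from a control level of 11.2 normalized counts.

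AP-1 family genes gave 4 higher and none lower with either agent, of 12 tested with PMA (median 0.84) and of 11 with ConA (median 0.88). Those with the largest changes were MAFF (1.82) and FOSL1 (1.81) with PMA, and BATF2 (3.00) and FOS (1.53) with ConA. ETS and RUNX factors gave 2 higher and 3 lower of 12 with PMA (median 0.50) and none called of 13 with ConA (median 0.01). ETS1 rose by 1.81, and RUNX2 and RUNX3, transcription factors of bone and of T cells among other tissues, fell by 2.03 and 1.81 with PMA. Among matrix proteins that these enzymes can cut, 1 rose and 4 fell of 18 with PMA (median -0.29) and 2 rose and 1 fell of 18 with ConA (median 0.35). The proteoglycan versican, VCAN, fell with both (-3.07 and -1.61). DCN, which codes for decorin, rose by 3.36 with ConA from 1.68 to 25.3 normalized counts, so it was tested only through its treated libraries.

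**Figure D5:**
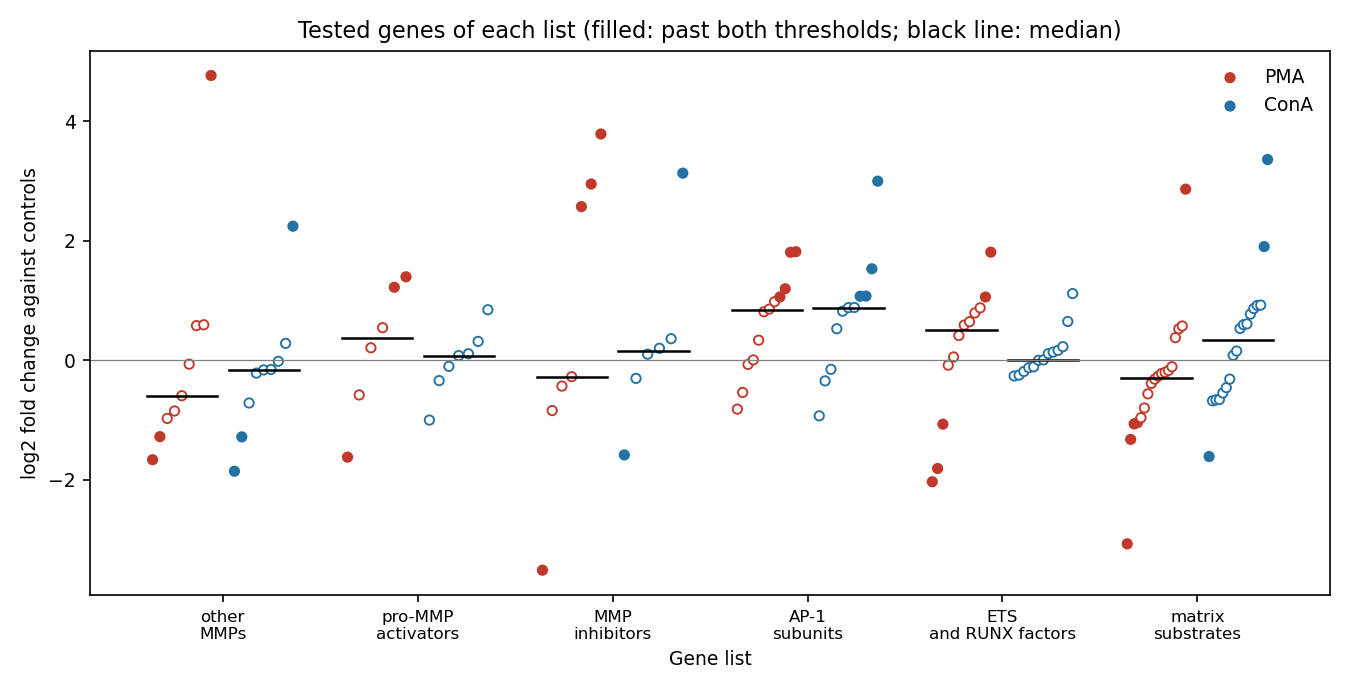
Log2 fold changes (limma) of the genes of each list with PMA and with ConA, 1 point a gene, with the list's median as a bar and filled points for genes past both thresholds. The AP-1 list had medians of 0.84 and 0.88, and the list of other MMPs -0.59 and -0.16.

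The genes whose levels were most like those of a member were sought by Pearson's r of log2 levels, each less the mean of the controls of its table, over the 12 libraries, among 14661 genes, as a description. The points share their treatments, and within a table their normalization, so any gene that follows the same groups scores high. For MMP1 the 3 nearest were TM4SF19, ALCAM and IL1B (r = 0.999 each), which rose by 2.65, 1.67 and 3.39 with PMA on the log2 scale and had 0.84, 0.54 and 0.97 with ConA. For MMP3 they were the chemokine CCL20 (r = 0.998), NUP58 (0.996) and HDAC9 (0.995), and for MMP13 they were GCH1 (0.996), C1QTNF1 (0.995) and CTSS (0.994). Between members r was 0.919 for MMP1 and MMP3, 0.969 for MMP3 and MMP8, 0.696 for MMP3 and MMP13 and 0.384 for MMP1 and MMP13, and it was -0.36 for MMP1 and MMP7.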

How the data were processed

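RNA sequencing of polyadenylated RNA was available as 2 tables of normalized counts, one for each experiment, with 6 libraries each. As deposited by the authors, this signal is reads per gene symbol divided by a size factor per library, made separately for each table. The submitters' processing notes name Partek, STAR, Bowtie2, DESeq2 and the builds hg19 and mm10 without their roles, and the counting rule is not given in the sources used here. The value of 1 read was estimated in each library as the commonest normalized count near 1. Under it 79.2% to 81.7% of the values between 5 and 60 were whole within 0.01, so reads are estimates and no count test was run. Counting intervals cover counting error only.

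Libraries were grouped by the sample titles. Each treatment was compared with the controls of its own table with limma 3.58.1 in R 4.3.3 on log2(value + 1), with a variance trend, for genes with a mean of at least 10 over the libraries compared. Fold changes are on that scale, which understates the change of low genes. Adjustment followed Benjamini and Hochberg over all genes tested. Calls needed a log2 fold change of 1 or more in size and an adjusted p no higher than 0.0001, the thresholds lettered on the study's diagram of overlapping genes, since its text names none. The difference between the treatments was fitted over all 12 libraries. With 3 against 3 an exact permutation test cannot go below 0.1 and was not used. Where all controls were at 0, the fold was set against 3 reads per library. Where controls held few reads, the pooled ratio has an exact conditional binomial interval.

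The members and the lists were chosen with earlier results of these data known. All members were described, and of each list up to 4 genes past the thresholds with the largest change with either agent, plus the neighbours, were named, except that 1 gene is not reported here. The scripts were tested on simulated data with the same spread setting for every gene. That test does not bear on members with a wide spread or with few reads in controls. Alternatives covered the pseudocount, filter, centring and quantile scaling, variance trend, thresholds, a replicate block and leaving out each library. Figures were drawn with matplotlib 3.10.9, and tables made with pandas 2.3.3 and numpy 2.4.6 under Python 3.11.15.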

Additional observations from a re-analysis of the deposited data

Results flagged for a closer look

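The change of MMP1 with PMA exceeded that with ConA by 3.87 on the log2 scale, and for MMP13 the change with ConA was the larger, at a PMA minus ConA difference of -3.45. Both came up because the effects of the agents differed by a test of the difference itself (limma over 12 libraries, adjusted p = 3.89e-13 and 3.41e-08). MMP1 was higher in 3 of 3 libraries with either agent, and so was MMP13. Each agent belongs to an experiment of its own, with its own controls, and agent and experiment cannot be told apart. No group had more than 3 libraries, too few for a test of single outlying libraries.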

How the results depend on the processing

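Directions did not turn in any of 313 values of single genes under the alternatives; 288 kept their side of the thresholds, 15 lost it and 10 gained it. With PMA 5 genes were called; a minimum mean of 50 left 3, since MMP8 and MMP13 were not tested, and a fit without the variance trend also left 3 (MMP8 at an adjusted p of 2.62e-04 and MMP13 at 5.90e-04). Leaving out 1 library gave 3 to 5. The 3-library groups named in the titles share replicate numbers in the PMA experiment. The correlation of deviations of same-numbered libraries was -0.06, 0.10 and 0.10. Controls 2 and 3 correlated best with the PMA library of the same number, and control 1 with PMA 2 (0.106). Correlations this weak cannot settle whether the numbers pair the libraries. With the replicate block 4 genes were called. No paired analysis was possible for ConA because its controls carry other numbers. With ConA 4 genes were called, and without the variance trend 1 (MMP1 at 2.60e-04, MMP3 and MMP12 at 1.13e-04); a minimum mean of 50 gave 3, a threshold of 0.05 gave 6, and leaving out 1 library gave 4 to 4. For the difference between the treatments 2 genes were called; a pseudocount of 10 gave 5 and an adjusted p threshold of 0.05 gave 6, and leaving out 1 library gave 2 to 2. The difference for MMP10 ran from 2.53 to 5.68 (adjusted p up to 0.127) that for MMP12 from -2.43 to -0.96 (up to 0.612) and that for MMP8 from 0.46 to 1.98 (0.0103 to 0.342) over the settings other than left-out libraries. Low counts of MMP8, MMP10 and MMP12 limit what depth can show: MMP12 with PMA and MMP10 with ConA could not be tested, and MMP8 with ConA passed the filter in 3 of 6 fits that left out a library. The cause of the other changes was not tested.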
